A study of Mus musculus with 18 samples.

Results

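The transcripts of 9 Fc receptor genes (Fcgr1, Fcgr2b, Fcgr3, Fcgr4, Fcer1g, Fcgrt, Fcer2a, Fcmr and Fcamr) were followed through leukocytes that stayed in an inflamed joint or ear, leukocytes that had left for the draining lymph node, and node leukocytes at steady state. The genes were picked by symbol as the receptors for immunoglobulin constant regions and their shared signalling chain. They are 9 of the 49585 genes in the count table, and 9 of 9 passed the filter on low counts in both model fits.

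Bulk RNA-Seq was run on 18 libraries in 6 groups of 3, all from mice of the Kaede strain, whose photoconvertible protein turns from green to red under violet light and so marks cells by where they were at that moment. For the inflamed groups, recipients were given in vitro polarized OT-II Th1 cells, were immunized with 100 μg ovalbumin (OVA) in complete Freund's adjuvant, and were challenged 10 days later with 100 μg heat-aggregated ovalbumin (HAO) in the footpad (joint) or the ear pinna (skin). Tissue was photoconverted on day 3 and CD45+ Kaede red+ cells were sorted 24 hours later, either from the challenged tissue (joint nonmigrated, skin nonmigrated) or from its draining node (joint migrated, skin migrated). Each of these libraries pooled 8 to 18 mice, and the mice of all 6 groups, steady state included, were aged 6 to 10 weeks. The steady-state groups are labelled as leukocytes that migrated from joint or ear to the node without inflammation. The titles of the joint-draining steady-state libraries carry PBS and KG, those of the skin-draining ones Naive, so site and handling cannot be told apart between them. What KG stands for was not given in the sources used here. Cells were incubated with an Fc receptor block before antibody staining, in the protocol given for all samples.

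The 6 inflamed skin libraries held 19239531 to 22528895 gene counts and the other 12 held 28577566 to 43814403. Entries outside any gene were 0.0925 to 0.135% in those 6 and 0.227 to 0.562% in the other 12. Where these skin libraries are compared with joint or steady-state ones, the condition and the set of libraries cannot be told apart. A floor of 3 counts corresponded to 0.0650 to 0.165 CPM in a library (CPM, read counts scaled to a common library size with TMM factors). Ptprc, which encodes the sort marker CD45, was at 1134 CPM or more in every library. Replicates are 3 libraries a group, stated to be pools of mice for the inflamed groups, and where the labels do not say that they came from separate animals the p-values measure only the spread between these libraries, which may be technical. In bulk libraries, fewer cells of a type and less RNA per cell cannot be told apart. Among the skin nonmigrated libraries the third stood apart from the other two for Fcgrt, Fcer2a and the macrophage markers, and values that it moved are given with and without it.

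Fc receptors read the constant part of antibodies. The activating receptors for IgG, encoded by Fcgr1 (FcγRI), Fcgr3 (FcγRIII) and Fcgr4 (FcγRIV), bind immune complexes on macrophages, monocytes, neutrophils and natural killer cells, and signal through the FcR common γ chain, encoded by Fcer1g, whose tail carries a paired-tyrosine motif (ITAM) that recruits the kinase Syk. FcγRIIb, encoded by Fcgr2b, is the inhibitory counterpart: its tail carries a single-tyrosine motif (ITIM) that recruits the phosphatase SHIP1, and it is the IgG receptor of B cells as well as of myeloid cells. Fcgrt encodes FcRn, which pairs with β2-microglobulin and spares IgG from lysosomal breakdown. Fcer2a encodes CD23, the low-affinity IgE receptor of follicular B cells, Fcmr encodes the IgM receptor of lymphocytes, and Fcamr encodes a receptor for IgM and IgA. In arthritis, immune complexes and the balance of activating and inhibitory IgG receptors are known determinants of joint inflammation in mice.

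The signalling motifs of the γ chain and of FcγRIIb lie in the coding stretches below, which are from GENCODE M21 transcripts (GRCm38, minus strand of chromosome 1) and are shown because these genes encode the activating and the inhibitory side of IgG signalling. The stretches were placed by the known cytoplasmic motifs. The short letter pattern of an ITIM by itself also matched in Fcer1g, Fcgr1, Fcgr4 and Fcgrt, so the pattern does not set Fcgr2b apart. Capitals mark the tyrosine codons of the motifs. The Fcer1g stretch lies at chr1:171229874-171230087 and the Fcgr2b stretch at chr1:170961056-170961198, each across an exon junction.
Fcer1g ITAM: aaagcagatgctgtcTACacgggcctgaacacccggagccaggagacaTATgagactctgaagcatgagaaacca
Fcgr2b ITIM: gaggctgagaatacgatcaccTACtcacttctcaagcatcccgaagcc

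Upstream sequence was read from RefSeq promoter windows (GRCm38.p6), which held 9 of the 9 genes, and the 250 bases before each annotated start were searched on both strands for GAGGAA, the purine-rich core that the myeloid and B cell factor PU.1 binds. At least 1 window of 5 of the 9 genes held it (Fcgr1, Fcgr3, Fcgr4, Fcmr and Fcamr), in each case within the last 100 bases. Across all 32851 windows, 9.82% held it in the last 100 bases and 23.3% anywhere in the 250. The 3 activating IgG receptor genes and Fcmr are printed, since they lay at opposite ends of the expression range, with the motif (reverse complement TTCCTC) in capitals. The motif was present in windows of 3 genes that were highest in the inflamed tissue (Fcgr1, Fcgr3 and Fcgr4) and of 2 that were highest in a steady-state node (Fcmr and Fcamr), and these letters were not in the windows of Fcgr2b and Fcer1g, also highest in the tissue. The stretches lie at chr3:96293970-96294069 (minus strand), chr1:171059404-171059503 (minus), chr1:171018826-171018925 (plus) and chr1:130865677-130865776 (plus). A match is a description of these letters and not evidence of binding.
Fcgr1: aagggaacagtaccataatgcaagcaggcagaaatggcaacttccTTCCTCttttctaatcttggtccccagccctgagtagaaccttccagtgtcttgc
Fcgr3: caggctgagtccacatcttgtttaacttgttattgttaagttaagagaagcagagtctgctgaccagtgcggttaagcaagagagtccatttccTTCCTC
Fcgr4: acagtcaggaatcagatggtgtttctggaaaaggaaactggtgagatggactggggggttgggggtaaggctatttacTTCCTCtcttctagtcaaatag
Fcmr: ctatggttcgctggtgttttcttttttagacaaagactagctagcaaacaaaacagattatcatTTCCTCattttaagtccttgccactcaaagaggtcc

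Comparing cells that stayed in the inflamed tissue with those that reached the node, the same 7 genes passed the test in joint and in skin. The 5 genes of the IgG receptor system (Fcgr1, Fcgr2b, Fcgr3, Fcgr4 and Fcer1g) were lower in migrated cells, and the B cell receptors for IgE and IgM, Fcer2a and Fcmr, were higher. Calls rest on edgeR's quasi-likelihood test over all 16777 genes that passed the filter, at a Benjamini-Hochberg (BH) adjusted p below 0.001 with an absolute log2 fold change above 1. Under that rule 12.6% of all tested genes were called lower and 8.8% higher in joint migrated cells, and 12.4% lower and 8.49% higher in skin migrated cells (21.4% and 20.9% in either direction). The libraries of the groups did not overlap for 9 of the 9 genes in joint and for 7 of the 9 in skin, as for 65.8% and 62.1% of all genes, so lack of overlap alone says little here. At an adjusted p below 0.05 the counts were 9 in joint and 7 in skin, beside 34.3% and 35.4% of all genes. The median log2 fold change over the 9 genes was -3.50 in joint and -3.60 in skin, beside 0.02 and 0.01 over all genes tested. The call counts, 5 lower and 2 higher, were kept at both sites when any 1 library was left out.

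**Figure D1:**
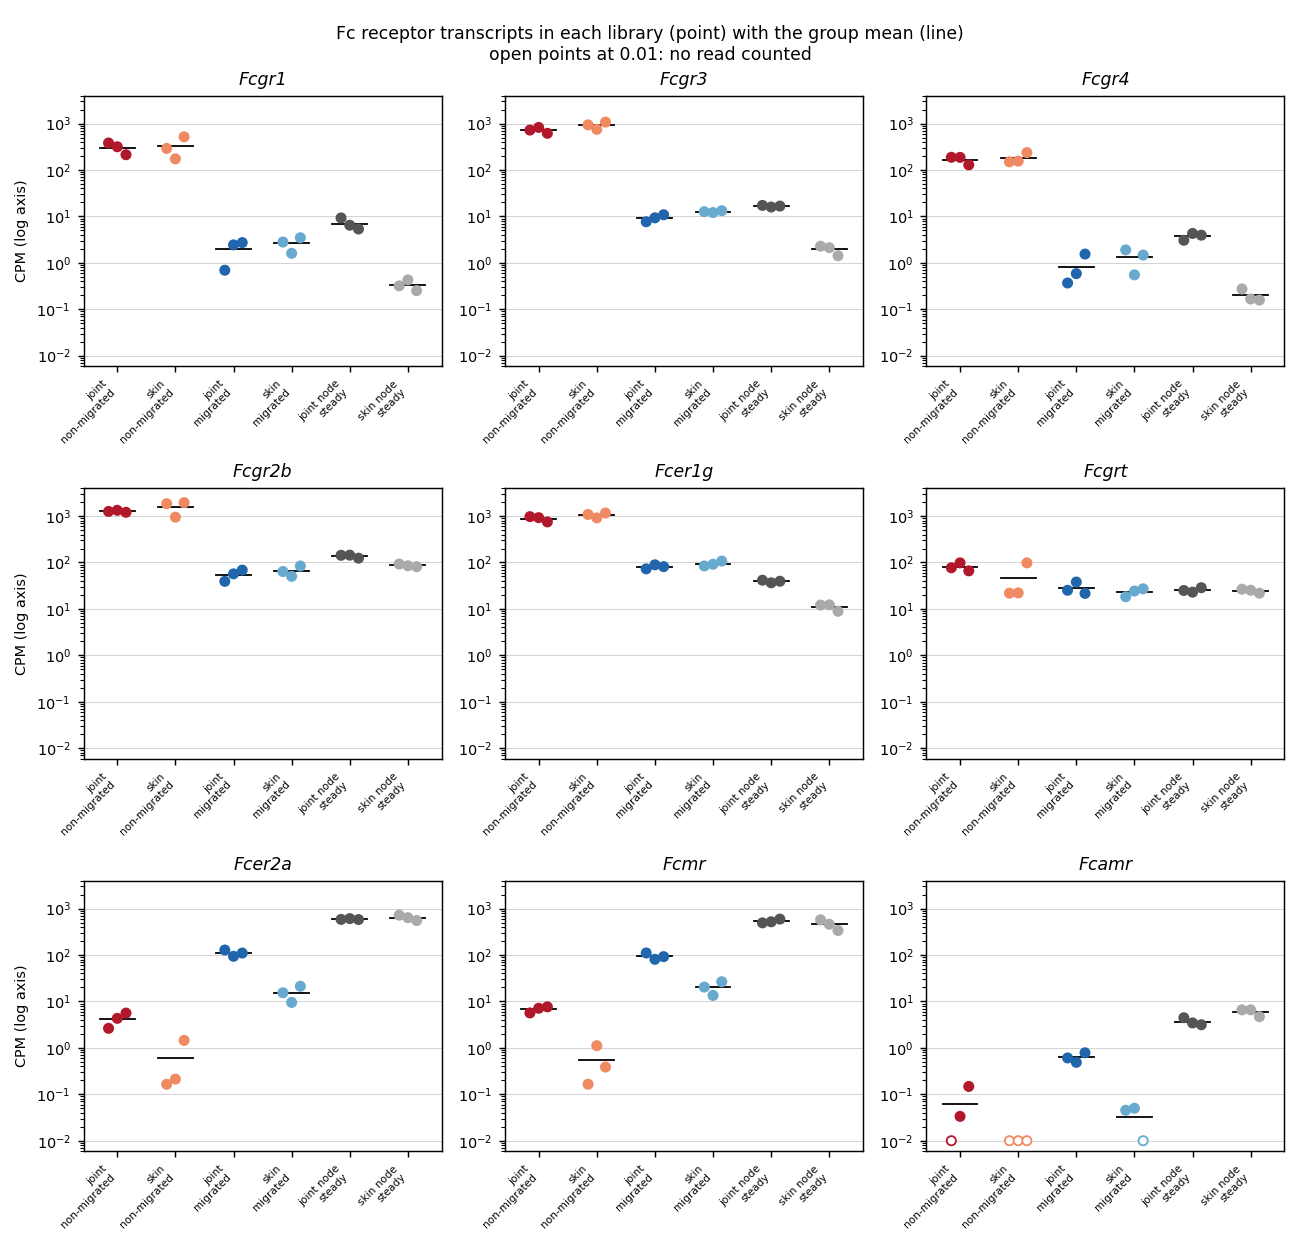
Each panel plots 1 Fc receptor gene, with CPM on a log axis and the 6 groups along the horizontal axis. Points are the 3 libraries of a group, lines are group means, and open points at 0.01 stand for libraries with no read. The IgG receptor genes and Fcer1g are highest in both nonmigrated groups, while Fcer2a, Fcmr and Fcamr are highest in both steady-state node groups.

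Fcgr3 (chr1:171051174-171064935), which encodes a low-affinity activating receptor for IgG, stood at 723, 825 and 616 CPM in the joint nonmigrated libraries and at 7.67, 9.32 and 10.8 CPM in the joint migrated ones. In skin it stood at 939, 751 and 1074 CPM in nonmigrated and at 12.6, 12.1 and 13.3 CPM in migrated libraries. Every nonmigrated library was far above every migrated one, with no overlap at either site. Migrated cells were lower by a log2 fold change of -6.34 ± 0.20 (SE) in joint and -6.30 ± 0.20 in skin (edgeR, BH-adjusted p = 1.24e-08 and 6.76e-09, n = 3 per group).

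Fcgr1 (chr3:96282909-96293969), the high-affinity IgG receptor, followed the same order at a lower level. It was at 381, 316 and 213 CPM in joint nonmigrated cells against 0.693, 2.44 and 2.73 CPM in joint migrated cells, and at 291, 174 and 518 CPM in skin nonmigrated against 2.81, 1.60 and 3.47 CPM in skin migrated cells. Groups did not overlap, although Fcgr1 varied more among libraries of a group than Fcgr3 did, and the first joint migrated library was the lowest of the migrated ones. The log2 fold changes were -7.34 ± 0.59 and -7.06 ± 0.59 (edgeR, BH-adjusted p = 2.05e-06 and 2.49e-06).

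Fcgr4 (chr1:171018920-171029761), the receptor of mouse monocytes, macrophages and neutrophils for IgG2 subclasses, had fold changes within 1 SE of those of Fcgr1. Joint nonmigrated libraries held 188, 187 and 129 CPM and joint migrated libraries 0.368, 0.586 and 1.54 CPM. Skin nonmigrated libraries held 150, 155 and 237 CPM and skin migrated libraries 1.90, 0.551 and 1.47 CPM. As few as 11 reads were counted for Fcgr4 in a migrated library, so its fold change of -7.71 ± 0.51 in joint and -7.20 ± 0.51 in skin is less tightly set than that of Fcgr3 (edgeR, BH-adjusted p = 6.47e-07 and 7.95e-07).

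Fcgr2b (chr1:170958617-170976547), the inhibitory receptor, had the highest CPM of the 9 genes in nonmigrated cells but a smaller drop. It stood at 1258, 1329 and 1205 CPM in joint nonmigrated libraries and at 39.2, 56.9 and 68.6 CPM in joint migrated libraries. In skin the values were 1846, 948 and 1947 CPM against 63.8, 50.3 and 84.0 CPM. Groups did not overlap, and the log2 fold changes were -4.59 ± 0.32 and -4.70 ± 0.32 (edgeR, BH-adjusted p = 8.28e-07 and 6.17e-07). An annotated gene on the opposite strand, Gm38204, overlaps 155 bases of its exons, and the counting setting for strand was not stated beyond the default.

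Fcgr2b and Fcgr3 also share sequence, which bears on how their reads could be assigned. Their aligned coding bases were 86.7% identical (678 of 782 bases), against 64.1% to 68.6% for the other pairs of IgG receptor genes. The longest identical run was 129 bases, longer than the 100-base reads, and lies at chr1:170966674-170968081 in Fcgr2b and at chr1:171054167-171057792 in Fcgr3, introns included. Of the 100-base windows of the Fcgr3 transcript, 3.53% also occur in an Fcgr2b transcript, and of those of Fcgr2b, 1.28% occur in Fcgr3. A read lying wholly in such a window cannot be assigned to either gene by its own sequence, although its mate may lie outside and place the read pair. The shared windows of the other pairs of genes numbered 0. The shared run is printed to show the stretch.
Fcgr2b and Fcgr3 shared run: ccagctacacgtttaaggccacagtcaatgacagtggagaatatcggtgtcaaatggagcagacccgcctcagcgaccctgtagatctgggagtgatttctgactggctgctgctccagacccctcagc

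Fcer1g (chr1:171229572-171234365), the γ chain that the activating IgG receptors need, dropped least of the 5. It was at 971, 924 and 749 CPM in joint nonmigrated and 72.8, 89.1 and 81.4 CPM in joint migrated libraries, and at 1082, 913 and 1162 CPM in skin nonmigrated and 84.2, 91.5 and 107 CPM in skin migrated libraries. No library crossed between groups. The log2 fold changes were -3.50 ± 0.15 and -3.60 ± 0.15 (edgeR, BH-adjusted p = 8.2e-08 and 2.95e-08). Per kilobase of exon, which allows genes to be compared, Fcer1g was the highest of the 9 genes in joint nonmigrated cells (857 to 1111 CPM per kb), above Fcgr3 (355 to 475), Fcgr2b (208 to 230), Fcgr4 (103 to 149) and Fcgr1 (82.3 to 147), the last pair overlapping.

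Markers of the cells known to carry these receptors moved with them. Of the 8 macrophage and monocyte markers, 7 were called lower in migrated cells at both sites, and 6 of 6 neutrophil markers were. Of all genes, 12.6% were called lower in joint and 12.4% in skin. The summed macrophage list stood at 17380 to 20780 CPM in joint nonmigrated and 468 to 629 CPM in joint migrated libraries, and at 4286 to 9883 and 587 to 876 CPM in skin. Ly6c2, the marker not called, made up a mean of 272 CPM of the joint migrated and 311 CPM of the skin migrated sums. The summed neutrophil list stood at 5142 to 15500 and 34.2 to 86.95 CPM in joint, and at 1369 to 2213 and 12.6 to 23.1 CPM in skin. No marker of either list was at 0 in all libraries of a group, and their part in the receptor differences was not tested.

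The balance among the receptors was read within each library as a ratio of CPM per kilobase of exon, as a description, since the exons of Fcgr2b are longer (5.79 kb) than those of Fcgr1, Fcgr3 and Fcgr4 (1.256 to 2.589 kb). The summed activating receptors Fcgr1, Fcgr3 and Fcgr4 lay above inhibitory Fcgr2b in nonmigrated cells, with a log2 ratio of 1.38 to 1.71 in joint and 1.28 to 1.93 in skin. In migrated cells the ratio was -0.54 to -0.44 in joint and -0.51 to -0.11 in skin, so that the activating sum was below Fcgr2b in each of the 6 libraries. How far the ratio lies from 0 depends on the exon length used. The length here is the union over annotated transcripts, which for Fcgr2b and Fcgr3 is longer than the transcript compared above. The ratio was -0.72 to -0.53 in the joint-draining node at steady state and lowest, at -3.75 to -3.27, in the skin-draining one. On raw counts, which also carry the difference in exon length, the log2 ratios were lower throughout, at -0.33 to 0.04 in joint nonmigrated and -2.20 to -2.17 in joint migrated libraries.

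Relative to the receptors it serves, Fcer1g was higher in migrated than in nonmigrated cells. Per kilobase, its log2 ratio to the summed activating receptors was 0.50 to 0.67 in joint and 0.40 to 0.75 in skin for cells that stayed, and 3.45 to 4.07 and 3.29 to 3.71 for cells that migrated. In steady-state nodes it was 1.47 to 1.61 on the joint side and 3.06 to 3.29 on the skin side. The γ chain also pairs with receptors outside the IgG system on natural killer cells, dendritic cells and basophils. The summed natural killer list stood at 132 to 298 CPM in joint migrated against 40.1 to 54.6 CPM in joint nonmigrated libraries, and the summed dendritic cell list at 1002 to 2304 against 225 to 343 CPM. In skin the natural killer ranges overlapped (156 to 251 CPM in migrated and 64.8 to 264 CPM in nonmigrated libraries), while the dendritic cell list was at 1481 to 1964 against 450 to 700 CPM. Most of the dendritic cell sum came from Ccr7, a chemokine receptor also found on T cells, at a mean of 1226 against 40.0 CPM in joint and 1095 against 225 CPM in skin. Of the 6 dendritic cell markers, 3 were called higher and 1 lower in joint, and 2 higher and 1 lower in skin, with Itgax (CD11c) the one called lower at both sites. The mast cell and basophil list went the other way, with a median log2 fold change of -1.13 in joint and -4.84 in skin, and 1 of its 6 genes, the basophil protease Mcpt8, was called lower at each site. Its sum was 26.9 to 188 CPM in joint migrated against 121 to 277 CPM in joint nonmigrated libraries, and 18.8 to 23.6 against 134 to 274 CPM in skin. Over all genes, 8.8% were called higher and 12.6% lower in joint, and 8.49% and 12.4% in skin. The part of natural killer cells, dendritic cells, mast cells and basophils in the ratio was not tested.

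**Figure D2:**
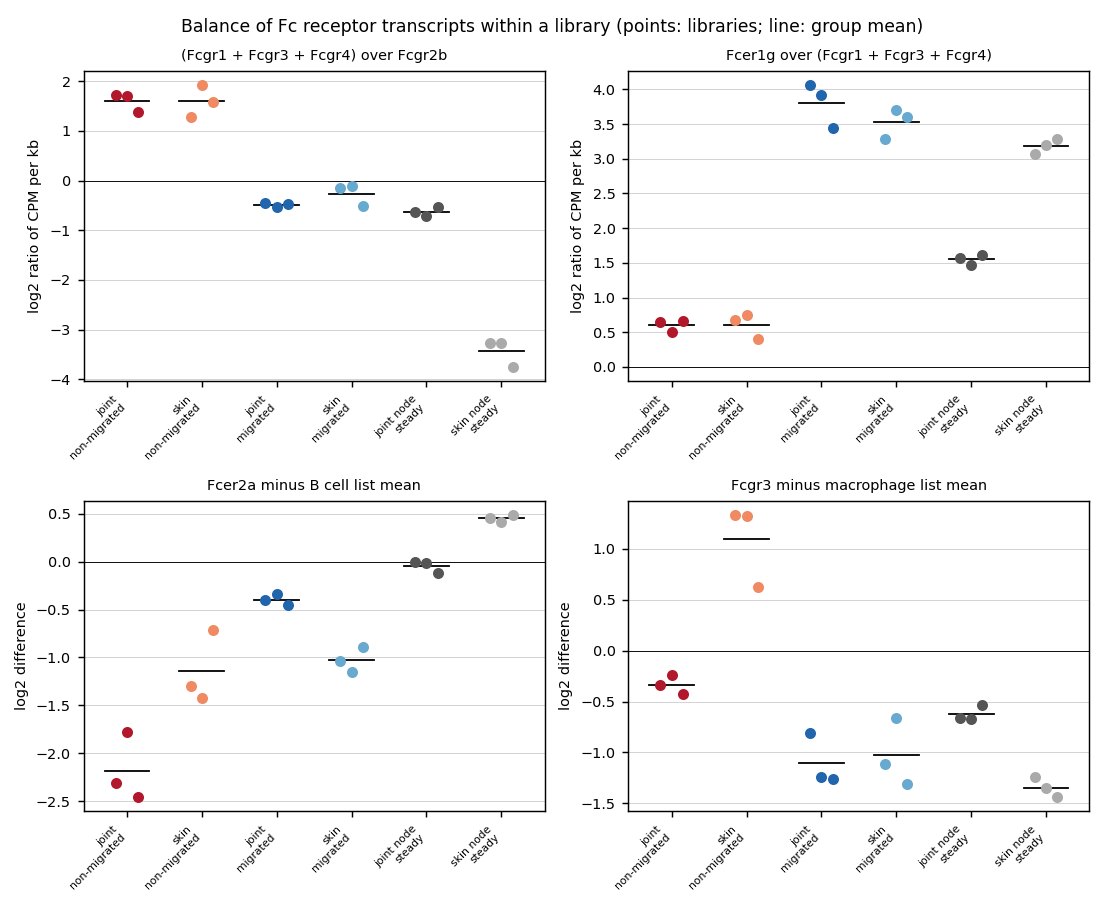
Within-library balance of Fc receptor transcripts in the 6 groups, with log2 values on each vertical axis, points for libraries and lines for group means. The upper panels show activating receptors over Fcgr2b and Fcer1g over activating receptors, both as ratios of CPM per kb, the lower panels Fcer2a against the B cell list and Fcgr3 against the macrophage list. The ratio of activating receptors to Fcgr2b is above 0 in every nonmigrated library and below 0 in every migrated and steady-state one, with the skin-draining node at steady state lowest at -3.75 to -3.27.

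Set against the mean log2 level of the macrophage list in the same library, Fcgr3 varied far less than its level did. For cells that stayed, the difference was -0.43 to -0.24 in joint and 0.63 to 1.33 in skin. For cells that migrated, it was -1.26 to -0.81 from joint and -1.31 to -0.66 from skin, lower at both sites with no overlap. The scale here is log2(CPM + 1), which compresses low values. The list mean also includes Ly6c2, which was not called at either site. Its mean was 272 CPM in joint migrated against 333 CPM in joint nonmigrated cells, and 311 against 279 CPM in skin. It thus holds up the list mean in migrated libraries, which lowers the differences there, and these were not computed without it. Fcgr1 was also lower against the same list in migrated than in nonmigrated libraries at both sites (-3.17 to -2.83 against -1.95 to -1.25 in joint, -2.996 to -2.95 against -0.79 to -0.35 in skin), with no overlap, as was Fcgr4. In joint, Fcgr2b (1.248 to 1.402 against 0.449 to 0.54) and Fcer1g (1.535 to 2.278 against -0.146 to 0.092) were instead higher in migrated libraries. In skin, Fcgr2b was lower (1.139 to 1.304 against 1.485 to 2.307) and Fcer1g overlapped. The part of macrophages in these values was not tested.

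Fcgrt (chr7:45092990-45103851), the gene of the neonatal receptor FcRn, had the narrowest range of levels of the 9 genes. It was at 76.9, 98.1 and 66.1 CPM in joint nonmigrated libraries and at 25.2, 37.9 and 21.6 CPM in joint migrated ones. Those 3 joint nonmigrated libraries were all higher, yet the log2 fold change of -1.57 ± 0.49 did not pass (edgeR, BH-adjusted p = 0.0164). It did pass when only those 6 libraries were fitted (-1.58, edgeR, BH-adjusted p = 0.000783). In skin nonmigrated cells 2 libraries were at 21.9 and 22.1 CPM, within the range of migrated cells (18.3 to 27.1 CPM), and the third was at 98.0 CPM. The library at 98.0 CPM also held 9883 CPM of the macrophage list against 4286 and 5182 CPM in the other two. The skin log2 fold change was -1.14 ± 0.49 with it and -0.05 ± 0.24 without it, neither of which passed (edgeR, BH-adjusted p = 0.0648 and 0.88).

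The steady-state nodes held 23.0 to 28.6 CPM of Fcgrt on the joint side and 21.8 to 26.6 CPM on the skin side, overlapping both migrated groups. B2m, the light chain that FcRn needs, was called in neither tissue (log2 fold change -0.15 ± 0.14 in joint and -0.44 ± 0.14 in skin, edgeR, BH-adjusted p = 0.376 and 0.016).

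Fcer2a (chr8:3681737-3694175), which encodes CD23, went in the opposite direction to the IgG receptors. It stood at 2.63, 4.32 and 5.61 CPM in joint nonmigrated and at 128, 93.8 and 110 CPM in joint migrated libraries. In skin it stood at 0.165, 0.212 and 1.45 CPM in nonmigrated libraries, the first from 3 reads and the second from 4, and at 15.4, 9.51 and 21.2 CPM in migrated libraries. Every migrated library was above every nonmigrated one. The log2 fold changes were 4.65 ± 0.50 and 4.49 ± 0.58 (edgeR, BH-adjusted p = 1.38e-05 and 5.38e-05). The skin value was 6.20 ± 0.59 without the third nonmigrated library (edgeR, BH-adjusted p = 8.65e-06), and with the 6 skin libraries fitted alone the skin call was lost (4.49, edgeR, BH-adjusted p = 0.00225).

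Fcmr (chr1:130865669-130880791), the IgM receptor gene, ran beside Fcer2a. Its values were 5.66, 7.13 and 7.64 CPM in joint nonmigrated and 111, 80.7 and 92.2 CPM in joint migrated libraries, and 0.165, 1.12 and 0.386 CPM in skin nonmigrated and 20.4, 13.46 and 26.5 CPM in skin migrated libraries. Groups did not overlap, and the log2 fold changes were 3.73 ± 0.36 and 5.05 ± 0.45 (edgeR, BH-adjusted p = 6.61e-06 and 3.59e-06). B cell markers moved in the same direction, with 5 of 6 called higher in migrated cells at each site, beside 8.8% (joint) and 8.49% (skin) of all genes. In joint libraries the summed B cell list lay between 113 and 247 CPM for cells that stayed and between 804 and 1100 CPM for cells that migrated. In skin libraries it lay between 17.5 and 28.8 CPM and between 152 and 258 CPM respectively, and its part in the receptor differences was not tested.

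Relative to the mean log2 level of that B cell list in the same library, Fcer2a stood at -0.45 to -0.34 in joint migrated, -1.15 to -0.89 in skin migrated, -0.12 to 0.00 in the joint-draining and 0.41 to 0.49 in the skin-draining node at steady state. These 4 ranges do not overlap. Fcmr stood at -0.70 to -0.56 in joint migrated and -0.69 to -0.58 in skin migrated libraries, which overlap, and at -0.25 to -0.09 and -0.22 to 0.12 in the steady-state nodes.

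Fcamr (chr1:130800902-130814740) was close to or below the counting floor in both nonmigrated groups and in skin migrated cells, and above it at 0.607, 0.488 and 0.783 CPM in joint migrated cells. Its reads summed to 0 in the skin nonmigrated libraries, 6 in joint nonmigrated, 2 in skin migrated and 83 in joint migrated, against 474 and 714 in the joint-draining and skin-draining nodes at steady state. The pooled level in joint migrated cells was 10.5-fold that in joint nonmigrated cells (95% exact interval of the counting ratio 4.61 to 29.4). The edgeR test did not pass (BH-adjusted p = 0.00577), and counting intervals cover counting error only. No fold is given between the skin groups, since both were under the floor of 3 counts.

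Joint and skin were then compared directly. The inflamed skin libraries differed from the joint ones in depth and in entries outside genes, so site and set of libraries cannot be told apart. Among nonmigrated cells 1 of the 9 genes was called, Fcmr, where 3.05% of all genes were called in either direction and 1.14% higher in joint. It was higher in joint by a log2 fold change of 3.48 ± 0.44 (edgeR, BH-adjusted p = 0.000374). The call ended when any of the 3 joint nonmigrated libraries or the first skin nonmigrated library was left out (log2 fold changes 3.07 to 3.61, edgeR, BH-adjusted p from 0.00104 to 0.00186). Without the third skin nonmigrated library 3 genes were called, namely Fcmr (3.26), Fcer2a (4.31) and Fcgrt (1.73), all higher in joint, while the calls over all genes went from 511 to 1372 (7.65% of those tested). At an adjusted p below 0.05, 2 of the 9 genes were called, Fcmr and Fcer2a, beside 14.3% of all genes. With all libraries Fcer2a was at 2.60 ± 0.58 and did not pass (edgeR, BH-adjusted p = 0.00751).

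Of the 6 B cell markers, 4 (Ms4a1, Cd79a, Cd79b and Pax5) were also called higher in joint than in skin nonmigrated cells, at log2 fold changes from 2.76 to 7.50, and their part in the Fcmr difference was not tested. The libraries did not overlap for 2 of the 9 genes, Fcer2a and Fcmr, as for 40% of all genes. The IgG receptors overlapped between joint and skin nonmigrated cells. Their log2 differences, joint minus skin, were -0.23 for Fcgr1 (95% interval -1.09 to 0.62), -0.45 for Fcgr2b (-0.99 to 0.09), -0.48 for Fcgr3 (-0.79 to -0.17), -0.23 for Fcgr4 (-0.95 to 0.48) and -0.38 for Fcer1g (-0.66 to -0.11). Without the third skin nonmigrated library they were 0.25 ± 0.41 for Fcgr1, whose sign turned, -0.28 ± 0.30 for Fcgr2b, -0.36 ± 0.16 for Fcgr3, -0.00070 ± 0.37 for Fcgr4 and -0.32 ± 0.15 for Fcer1g, and none of these 5 passed with or without it.

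Among migrated cells 0 of 9 genes were called by edgeR between joint and skin, as were 0% of all genes, while 4 of the 9 had an unadjusted p below 0.05 (16.5% of all genes) and DESeq2's Wald test called 2, Fcer2a and Fcmr, beside 0.922% of the genes it tested. At an adjusted p below 0.05 edgeR also called those 2, beside 1.14% of all genes, and the libraries did not overlap for 4 of the 9, beside 28.4% of all genes. Fcer2a was 2.77 ± 0.45 higher in joint migrated cells on the log2 scale and Fcmr 2.15 ± 0.33 higher, with no overlap of libraries (edgeR, BH-adjusted p = 0.0141 and 0.0118). The summed B cell list was also apart, at 804 to 1100 CPM in joint and 152 to 258 CPM in skin migrated libraries. Fcgr3 was lower in joint migrated cells by -0.52 ± 0.17 (95% interval -0.85 to -0.20), also without overlap and without passing (edgeR, BH-adjusted p = 0.138).

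Whether the change from tissue to node differed between joint and skin was tested as an interaction. edgeR and DESeq2 each called 0 of 9 genes, where edgeR called 0.119% and DESeq2 3.5% of all genes, and 1 of the 9, Fcmr, had an unadjusted p below 0.05 (26.3% of all genes). The differences of the log2 fold changes, joint minus skin, were -0.04 for Fcgr3 (95% interval -0.49 to 0.40), 0.09 for Fcer1g (-0.29 to 0.48), 0.11 for Fcgr2b (-0.66 to 0.87), -0.28 for Fcgr1 (-1.62 to 1.06) and -0.50 for Fcgr4 (-1.75 to 0.74). The intervals of Fcgr3 and Fcer1g lie within a difference of 1 on the log2 scale between the sites, and those of Fcgr1 and Fcgr4 reach past it. That of Fcgr2b ends near 1. Since the intervals take a normal multiple of the SE and are narrow for so few libraries, Fcgr2b is left undecided. The difference was -1.33 for Fcmr (-2.42 to -0.23; edgeR, BH-adjusted p = 0.161), -0.43 for Fcgrt (-1.76 to 0.89) and 0.16 for Fcer2a (-1.37 to 1.70). Without the third skin nonmigrated library it was -0.76 ± 0.62 for Fcgr1, -0.74 ± 0.63 for Fcgr4 and -1.10 ± 0.60 for Fcmr. For Fcgrt it then reached -1.52 ± 0.33 (edgeR, BH-adjusted p = 0.0081), and for Fcer2a it turned to -1.54 ± 0.81 (edgeR, BH-adjusted p = 0.199). Calls over all genes rose from 20 to 330 (1.84%) without it, and the 9 genes were not among them.

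**Figure D3:**
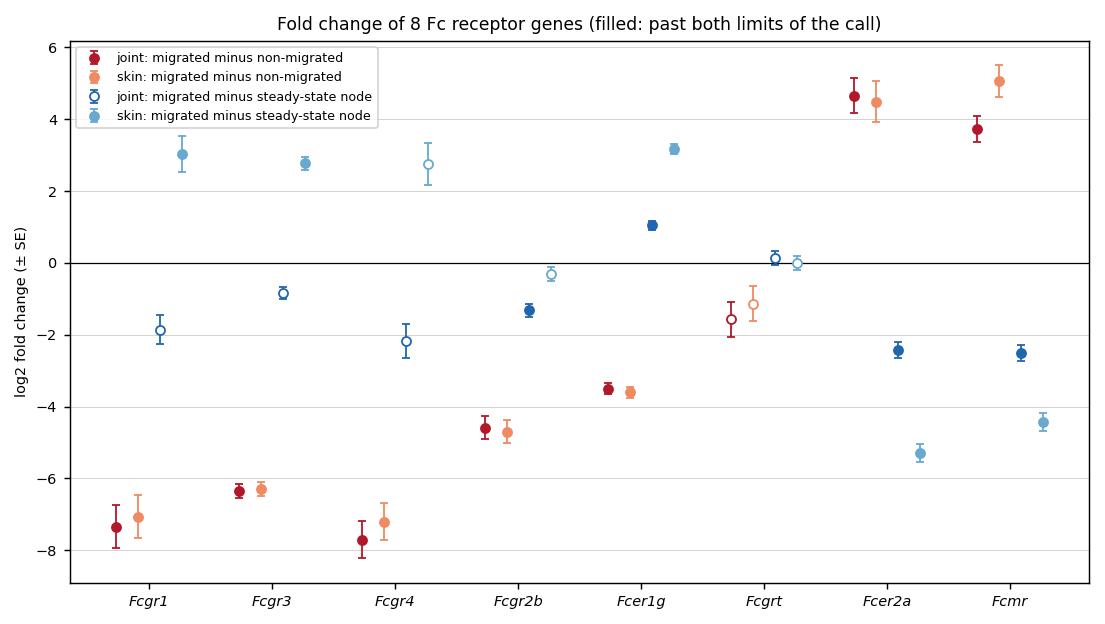
Log2 fold changes (vertical axis, with bars of 1 SE) of 8 Fc receptor genes in 4 comparisons. Filled points passed both limits of the call. Fcamr is not drawn because its reads were at or near 0 in several groups. The joint and skin points for migrated minus nonmigrated lie side by side, whereas those for migrated minus steady-state node lie on opposite sides of 0 for Fcgr1, Fcgr3 and Fcgr4.

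Migrated cells were next set against node leukocytes at steady state, which is a second comparison of the same migrated libraries. The skin migrated libraries, unlike the joint ones, were shallower than the steady-state libraries and held fewer entries outside genes. In skin, migration and set of libraries therefore cannot be told apart. In joint, Fcgr2b, Fcer2a, Fcmr and Fcamr were called lower in migrated cells (4 of 9 genes, with 3.5% of all 17107 tested genes called lower) and Fcer1g was called higher (1 of 9, with 12.4% of all genes). In skin, Fcer2a, Fcmr and Fcamr were called lower (3 of 9, with 8.51% of all genes) and Fcgr1, Fcgr3 and Fcer1g higher (3 of 9, with 16.6% of all genes). Of all genes, 15.9% were called in either direction in joint and 25.1% in skin. The libraries did not overlap for 8 of 9 genes in joint and 7 of 9 in skin, beside 56.4% and 71.7% of all genes. In migrated cells, Fcer2a and Fcmr were thus below the steady-state level at both sites, although above that of the tissue the cells left. Fcamr was not called against the tissue at either site.

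Fcer2a was at 584, 608 and 580 CPM in the joint-draining node at steady state and at 720, 638 and 552 CPM in the skin-draining one. Migrated cells were lower by -2.43 ± 0.22 in joint and -5.29 ± 0.25 in skin (edgeR, BH-adjusted p = 8.84e-07 and 2.04e-09). Fcmr, at 493, 519 and 593 CPM and at 571, 460 and 337 CPM in the same nodes, was lower by -2.51 ± 0.23 and -4.42 ± 0.25 (edgeR, BH-adjusted p = 1.19e-06 and 9.85e-09). Steady-state and migrated libraries did not overlap for either gene. All 6 B cell markers were called lower in migrated cells at both sites, from 4112 to 4436 CPM summed in the joint-draining and 2749 to 3721 CPM in the skin-draining node at steady state.

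Fcamr reached 4.45, 3.44 and 3.15 CPM in the joint-draining and 6.58, 6.60 and 4.70 CPM in the skin-draining node at steady state. Pooled over libraries, the joint-draining node held 5.86 times the level of joint migrated cells (95% exact counting interval 4.64 to 7.50). The skin-draining node held at least 54.1 times the level of skin migrated cells, the lower end of the 95% exact counting interval. No point ratio is given, since the 2 reads counted in skin migrated cells lie under the floor.

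The γ chain was above the steady-state level in migrated cells of both sites. Fcer1g was at 41.5, 36.5 and 39.5 CPM in the joint-draining and at 12.1, 12.2 and 8.89 CPM in the skin-draining node at steady state. Joint migrated cells were higher by 1.04 ± 0.13 and skin migrated cells by 3.17 ± 0.14 on the log2 scale (edgeR, BH-adjusted p = 1.84e-05 and 1.47e-09), and groups did not overlap. The joint value lies at the size limit of 1, and the call was lost without the second joint migrated library (0.97) or the second joint-draining steady-state library (0.99). Tyrobp, the DAP12 adaptor with an ITAM of its own, was also higher, at 1.46 ± 0.18 and 3.05 ± 0.20 (edgeR, BH-adjusted p = 2.22e-05 and 2.57e-08).

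For the activating IgG receptors the direction differed between the joint and the skin comparison. The steady-state references of these carry different titles (PBS and KG, or Naive), so site and handling cannot be told apart here. Between the migrated groups themselves, Fcgr1, Fcgr3 and Fcgr4 differed by -0.51, -0.52 and -0.74 on the log2 scale, joint minus skin, and none passed. Fcgr3 was at 17.3, 15.9 and 16.7 CPM in the joint-draining node at steady state, above every joint migrated library, and at 2.28, 2.12 and 1.42 CPM in the skin-draining one, below every skin migrated library. Its log2 fold change in migrated cells was -0.85 ± 0.17 in joint, under the size limit, and 2.77 ± 0.19 in skin (edgeR, BH-adjusted p = 0.000842 and 3.52e-08). Fcgr1 was at 9.27, 6.46 and 5.36 CPM and at 0.320, 0.429 and 0.252 CPM in those nodes, with log2 fold changes of -1.86 ± 0.42 and 3.03 ± 0.50 (edgeR, BH-adjusted p = 0.00225 and 0.000154). The skin call for Fcgr1 was lost without the third of the skin migrated libraries or without the first or the third of the skin-draining steady-state ones (2.74 to 2.95, edgeR, BH-adjusted p from 0.00105 to 0.00144).

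Fcgr4 showed the same pattern without passing at either site, at 3.06, 4.29 and 3.94 CPM in the joint-draining and 0.274, 0.167 and 0.158 CPM in the skin-draining node at steady state. Its log2 fold changes were -2.18 ± 0.47 and 2.76 ± 0.59 (edgeR, BH-adjusted p = 0.0018 and 0.00104). Inhibitory Fcgr2b, at 143, 144 and 124 CPM in the joint-draining node, was lower in joint migrated cells by -1.32 ± 0.19 (edgeR, BH-adjusted p = 8e-05). In skin its steady-state values of 92.6, 85.0 and 81.0 CPM overlapped those of migrated cells (log2 fold change -0.31, 95% interval -0.68 to 0.07).

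The steady-state nodes themselves differed in the activating receptor system. Of the 9 genes, 4 were called higher in the joint-draining than in the skin-draining node, where 1.4% of all genes were called higher and 1.44% in either direction. The libraries did not overlap for 6 of the 9, beside 31.1% of all genes. The 4 genes, with log2 fold changes of 4.37 ± 0.50 for Fcgr1, 4.19 ± 0.56 for Fcgr4, 3.09 ± 0.18 for Fcgr3 and 1.82 ± 0.13 for Fcer1g, are those of the activating IgG receptors and their chain (edgeR, BH-adjusted p = 0.000107, 0.000362, 1.14e-06 and 3.9e-06). Only Fcgr3 and Fcer1g were called when any 1 of the 3 skin-draining libraries was left out, with the calls over all genes then at 83, 96 and 83 in place of 246 (0.471%, 0.543% and 0.469% of those tested), and Fcgr4 was also lost without the second or the third joint-draining library. Fcgr2b, at 0.67 ± 0.19, did not pass (edgeR, BH-adjusted p = 0.0496), and Fcer2a (-0.11, 95% interval -0.50 to 0.29) and Fcmr (0.23, -0.19 to 0.66) overlapped between the nodes.

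Neutrophil and macrophage markers differed in the same direction between these nodes. All 6 neutrophil markers were called higher in the joint-draining node, where their sum was 403 to 810 CPM against 10.1 to 16.7 CPM in the skin-draining node, and 5 of 8 macrophage and monocyte markers were, at 547 to 714 against 181 to 228 CPM. The part of these cells in the receptor differences was not tested. Of 6 tested other receptors that pair with the γ chain, 3 were called higher in the joint-draining node, beside 1.4% of all genes, and 3 were not called. Those called were Clec4d (5.48 ± 0.62), Clec4e (5.29 ± 0.64) and Clec4n (4.10 ± 0.49), C-type lectins of myeloid cells.

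The genes around the receptors were taken as lists. Over all genes, 12.6% were called lower and 8.8% higher in joint migrated than joint nonmigrated cells, and 12.4% and 8.49% in skin. Among 7 tested receptors outside the Fc family that use the γ chain, 5 were called lower in joint migrated than joint nonmigrated cells and 3 in skin, and the others did not pass. The log2 fold changes of Clec4d were -7.56 ± 0.57 in joint and -8.58 ± 0.59 in skin, and those of Clec4e were -6.33 ± 0.69 and -7.01 ± 0.71. Lilra5 and Pira2 passed in joint and not in skin, but the interaction did not pass for either (edgeR, BH-adjusted p = 0.0579 and 0.224).

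Of 24 kinases and adaptors downstream of activating receptors, 11 were lower and 3 higher in joint migrated cells, and 8 lower and 1 higher in skin. Of all genes, 12.6% were lower and 8.8% higher in joint, and 12.4% and 8.49% in skin. Syk, the kinase that docks on the γ chain, was lower by -1.48 ± 0.14 and -2.15 ± 0.15. The Src family kinase Lyn was lower by -2.21 ± 0.18 and -2.27 ± 0.18, and Fgr by -2.79 ± 0.24 and -1.75 ± 0.24. The adaptors Gab2 (-2.39 ± 0.26 and -2.99 ± 0.27) and Lat2 (-2.02 ± 0.14 and -2.81 ± 0.15) were lower at both sites. Card9 passed in joint (-2.36 ± 0.24) and not in skin (-1.12 ± 0.23). The interaction passed for 0 of the 24, beside 0.119% of all genes. At an adjusted p below 0.05 it was called higher for 1 and lower for 1, beside 6.13% of all genes in either direction. Those called higher in joint were Fyn, Lat and Plcg1, which also serve the T cell receptor, at 1.72, 2.99 and 2.16. All 6 T cell markers were called higher in joint migrated cells and 2 of 6 in skin. For these markers the interaction passed for 0 of the 6, and at an adjusted p below 0.05 it was called higher for 2.

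Of 8 chains with an ITAM or related adaptors, Tyrobp was called lower at both sites (-2.54 ± 0.20 and -2.12 ± 0.20). The T cell chains Cd3d, Cd3e, Cd3g and Cd247 and the B cell chains Cd79a and Cd79b were called higher in joint migrated cells, and Cd79a and Cd79b in skin. The interaction passed for 0 of the 8. At an adjusted p below 0.05 it was called higher for 3 and lower for 1, beside 6.13% of all genes in either direction. Of 10 inhibitory signalling genes, 2 were lower and 1 higher in joint, and 1 lower and 1 higher in skin. Over all genes, 21.4% were called in either direction in joint and 20.9% in skin, so these counts do not set the inhibitory list apart. Inpp5d, which encodes SHIP1, the phosphatase downstream of FcγRIIb, was lower by -0.79 ± 0.12 in joint and -0.79 ± 0.12 in skin, under the size limit, and Ptpn6 (SHP1) by -0.60 ± 0.16 and -0.22 ± 0.16. Dok3 passed at both sites, at -2.27 ± 0.17 and -3.53 ± 0.18.

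**Figure D4:**
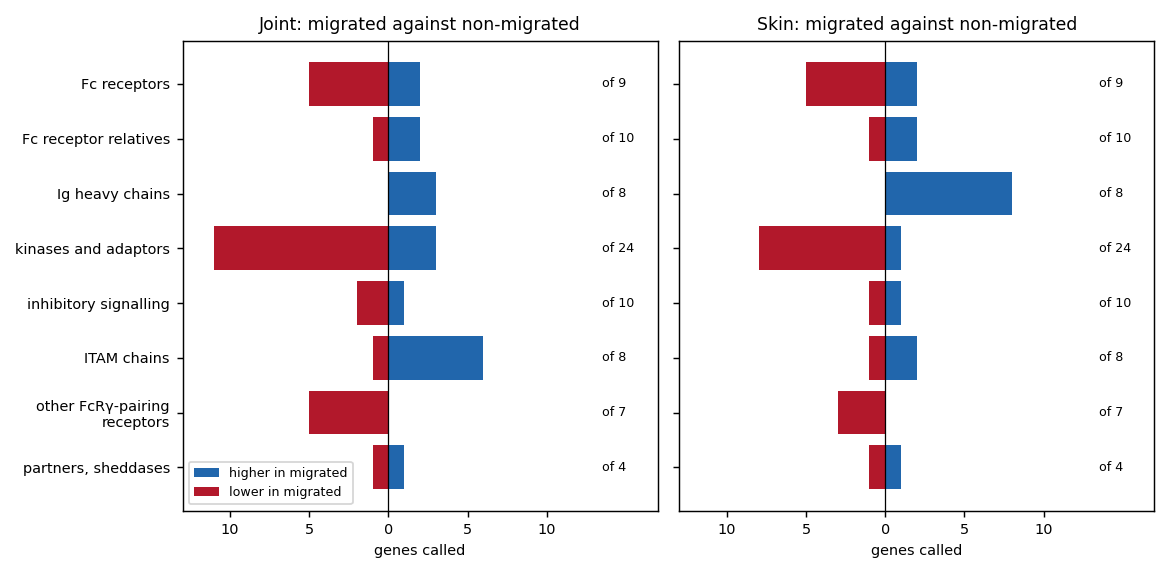
Number of genes called higher (right of 0) or lower (left of 0) in migrated against nonmigrated cells for the Fc receptors and 7 related lists, in joint and in skin. The number at the right of each bar is how many genes of the list were tested. Over all genes, 12.6% were called lower and 8.8% higher in joint, and 12.4% and 8.49% in skin. Of 24 kinases and adaptors, 11 were called lower and 3 higher in joint and 8 lower and 1 higher in skin, and all 8 immunoglobulin heavy chain genes were called higher in skin against 3 in joint.

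The ligands were read from the immunoglobulin heavy chain constant genes. In joint migrated cells 3 of 8 were called higher than in nonmigrated cells, Ighd (4.04 ± 0.33), Ighe (7.79 ± 0.73) and Ighm (2.13 ± 0.36), and in skin 8 of 8 were. Of all genes, 8.8% were called higher in joint and 8.49% in skin. The interaction did not pass for any of the 8 at the limit of 0.001. Adjusted p-values ran from 0.00155 (Ighg3) to 0.64 (Ighe) by edgeR with BH adjustment. At an adjusted p below 0.05, 6 of the 8 were called, all with a negative difference, joint minus skin. Beside them stand 6.13% of all genes in either direction and 2.17% in that one. The median difference over the 8 was -5.83 on the log2 scale. An unadjusted p below 0.05 was reached by 6 of the 8, beside 26.3% of all genes. The summed list was at 1081 to 2282 CPM in joint nonmigrated and 54.8 to 188 CPM in skin nonmigrated libraries, and at 3578 to 5883 and 4879 to 9494 CPM in the migrated ones. The 4 IgG genes were higher in migrated cells than in steady-state nodes at both sites, for example Ighg2c by 3.84 ± 0.48 in joint and 7.54 ± 0.57 in skin, whereas Ighd was lower at both, by -2.50 ± 0.19 and -4.97 ± 0.22. Constant genes of the IgG subclasses are close in sequence, so their split among subclasses is uncertain.

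Among 10 tested relatives of the Fc receptors, Fcrl1 and Fcrl5, receptor-like genes of B cells, were higher in migrated cells at both sites (3.38 ± 0.33 and 3.55 ± 0.33 in joint, 2.60 ± 0.36 and 3.18 ± 0.39 in skin). Fcrls was called lower in joint only, at a mean of 23.6 CPM in nonmigrated and 0.198 CPM in migrated cells. Fcrlb was called lower in skin only, at 36.7 and 3.99 CPM. The interaction was called for 0 of the 10, also at an adjusted p below 0.05. Of all genes, 8.8% were called higher and 12.6% lower in joint, and 8.49% and 12.4% in skin. Of the partners of CD23, Cr2, its ligand on B cells, was higher by 5.14 ± 0.38 in joint and 6.41 ± 0.53 in skin. Adam10, its sheddase, did not pass (-0.88 ± 0.16 and -0.08 ± 0.16), while Adam17 was lower at both sites (-1.52 ± 0.10 and -1.26 ± 0.10).

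Across all 18 libraries, the genes whose log2(CPM + 1) ran closest to each receptor are given as a description, since the 6 groups set most of the spread. Fcgr1 and Fcgr4 ran with each other (Pearson r = 0.994), Fcgr3 with Itgam (0.996) and Slc11a1 (0.995), Fcer1g with Lgals3 (0.997) and Metrnl (0.993), and Fcgr2b with Sdc4 (0.986) and Gsn (0.985). Fcgr1 also ran with Ms4a4a (0.996) and Fcgr4 with Sgms2 (0.991). Fcer2a ran with Cd22 (0.997) and Cacna1i (0.995), Fcmr with Ighd (0.996) and Ms4a1 (0.995), and Fcamr with Hcrtr2 (0.994) and Gm15848 (0.993). The nearest genes to Fcgrt, Gm29291 (0.959) and Slc39a12 (0.956), were less close.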

How the data were processed

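The authors deposited raw read counts per Ensembl gene for 18 libraries. Per the study's methods, paired 100-base reads were checked with FastQC, trimmed with Trim Galore, aligned to mm10 with TopHat2 using version 87 of the mouse transcriptome, and counted with HTSeq at default settings. The 5 HTSeq summary lines (11.3 to 15.1% of entries per library, of which reads aligned to more than 1 place were 9.24 to 12.7%) were left out of library sizes and tests. Gene symbols, positions and exon lengths came from GENCODE M21 (49326 of 49585 identifiers matched).

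CPM use TMM factors of all 18 libraries. Tests used edgeR 4.0.16 under R 4.3.3 (quasi-likelihood; low counts removed by filterByExpr, min.count 10) on the 12 inflamed libraries or on the 12 node libraries, with group as the only term. Per list and comparison, up to 4 called genes with the largest fold changes and no overlap of libraries could be named, plus stated partners of a receptor. Fyn, Plcg1 and Pira2 were named after their values were seen. Ratios within a library and neighbouring genes carry no test. Ratios between receptors are per kilobase of exon, a scale chosen after the values were seen. DESeq2 1.42.0, other filters, scalings, thresholds, sample sets, a replicate block and leaving out each library were alternatives. The edgeR step was tested on simulated data. The member genes and lists were chosen with earlier results of these data known. Promoter windows came from RefSeq, and coding sequences were aligned with Biopython 1.88. Intervals are nominally 95%. Those on log2 fold changes take a normal multiple of the SE, so they are somewhat narrower than the edgeR test would give. Those on counts cover counting error only.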

Additional observations from a re-analysis of the deposited data

Results flagged for a closer look

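The change from steady-state node to migrated cells differed between joint and skin for 5 of the 9 Fc receptor genes, by an edgeR contrast of the 12 node libraries that was added after the values had been seen (152 of 17107 genes, 0.889%, were called). The difference of log2 fold changes, joint minus skin, was -4.89 ± 0.65 for Fcgr1, -3.62 ± 0.25 for Fcgr3 and -2.12 ± 0.18 for Fcer1g (edgeR, BH-adjusted p = 0.000552, 8.15e-06 and 3.6e-05). Fcgr1 and Fcgr3 were lower than steady state in each joint migrated library and higher in each skin migrated library. For Fcer2a it was 2.86 ± 0.30 (edgeR, BH-adjusted p = 0.000108). For Fcamr the fitted 4.81 (edgeR, BH-adjusted p = 0.000435) rests on 2 reads in the skin migrated libraries and depends on the prior count. Fcgr4, at -4.94 ± 0.75, did not pass (edgeR, BH-adjusted p = 0.00144). The contrast also holds the gap between the steady-state nodes, 4.37 for Fcgr1, 3.09 for Fcgr3 and 1.82 for Fcer1g, joint minus skin. Between the migrated groups these genes differed by -0.51, -0.52 and -0.29. For Fcer2a the values were -0.11 and 2.77, and none of the migrated differences passed. The steady-state libraries carry different titles (PBS and KG, or Naive), and the skin migrated libraries were shallower than the rest. Site and handling therefore cannot be told apart in this contrast. The joint-draining and skin-draining steady-state libraries also differed in neutrophil and macrophage markers, and their part in these differences was not tested.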

How the results depend on the processing

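Under every alternative tried, no fold change of a called gene turned direction, and the 7 calls of migrated against nonmigrated cells ranged from 7 to 9 in joint and 6 to 7 in skin. For nonmigrated joint against skin the main count of 1 became 2 at an adjusted p of 0.05, with DESeq2, without a filter and with all 18 libraries, became 0 with only the groups compared, and ranged from 0 to 3 when 1 replicate was left out. For migrated joint against skin the count of 0 became 2 at an adjusted p of 0.05, with DESeq2, without a filter and with all 18 libraries. For the steady-state nodes the count of 4 ranged from 2 to 4 when 1 replicate was left out. Over all genes, the nonmigrated count of 511 became 2400 at an adjusted p of 0.05, 1546 with DESeq2, 1014 without a filter, 1104 with all 18 libraries and 0 with only the groups compared, and the steady-state count of 246 became 665, 492 and 521 under the first 3 of these. The interaction count of 20 genes became 1029, 648, 290 and 301 under the first 4, and the migrated joint against skin count of 0 became 191, 181, 61 and 38. At an adjusted p of 0.05 the counts of 3586, 3508 and 2714 became 5757, 5940 and 4143, and skin migrated against nonmigrated fell to 2111 with only the groups compared. When 1 replicate was left out, the counts over all genes ranged from 120 to 1372 for nonmigrated joint against skin, 7 to 330 for the interaction, 0 to 22 for migrated joint against skin and 83 to 180 for the steady-state nodes, with the highest count of the first and second reached without the third skin nonmigrated library. The cause of these changes was not tested.

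Same-numbered replicates deviated together with correlations of 0.021 to 0.251 (joint migrated and nonmigrated), 0.072 to 0.175 (skin) and 0.09 to 0.188 (both migrated groups). Over the other 4 comparisons the correlations were -0.351 to 0.057. Migrated and nonmigrated libraries with different numbers were at -0.215 to 0.038 in joint and -0.124 to 0.032 in skin. Whether tissue and node libraries of 1 number came from the same pool of mice is not stated. The main fit did not take the numbers as pairs, and a replicate block was an alternative. With the replicate block the count for nonmigrated joint against skin was 0, and the counts over all genes were 204 there, 7 between the migrated groups, 1 for the interaction and 163 between the steady-state nodes. Under the block Fcgr1 was no longer called in skin migrated cells against steady state (log2 fold change 2.97, edgeR, BH-adjusted p = 0.00145) or between the steady-state nodes (4.39, edgeR, BH-adjusted p = 0.00137), and Fcgr4 was called in both migrated groups against steady state (-2.37 and 2.69). Depth limits Fcamr in both nonmigrated groups and in skin migrated cells, and Fcer2a and Fcmr in skin nonmigrated cells, where a library held as few as 3 reads.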
